A study of Arabidopsis thaliana and Cucumis sativus and Glycine max with 60 samples.

Results

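The 8 Arabidopsis thaliana genes described here are 5 sulfate transporters (SULTR1;1, SULTR1;2, SULTR2;1, SULTR2;2 and SULTR3;5) and 3 reductases of adenosine 5'-phosphosulfate, APS (APR1, APR2 and APR3). They were picked by locus, and all 8 were found among the 33550 Arabidopsis rows of an expression table with 311875 rows. The series sequenced mRNA of root zones in 60 samples of 7 vascular plants. The 9 Arabidopsis libraries used here came from seedlings of the cultivar Columbia, 4 days after plating on agarose MS medium in constant light. The tips of primary roots were cut along their length into the MZ (meristematic, where cells divide), the EZ (elongation) and the DZ (differentiation), with 3 libraries a zone that the design text calls biological replicates. The labels name no treatment and 1 cultivar and medium for all groups, and each library holds the mixed cell types of its piece of root.

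Plants take up sulfur as sulfate through membrane transporters of the SULTR family, and reduce it in plastids. ATP sulfurylase first activates sulfate to APS, and APS reductase (APR) then reduces APS to sulfite with electrons from glutathione, a step known for its strong control by the sulfur status of the plant. In roots, the high-affinity transporters of group 1 take sulfate up from the soil in the outer cell layers, while the other 3 transporters are known from the vascular tissue.

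Values are RPKM, reads scaled to gene length and library size, so that levels of different genes can be set side by side. Changes are limma estimates on log2(RPKM + 1) ± standard error, with p-values adjusted by the Benjamini-Hochberg method over 19640 genes tested. Calls needed both an adjusted p under 0.05 and a difference of 2-fold or more. The added 1 makes changes of genes near 0 smaller than those of the RPKM themselves. A library listed at 0 may hold a failed estimate, so no fold is given against a zone with such a library. The 3 zone comparisons share their libraries and are not independent of each other.

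Depth was estimated at 8.04 to 9.02 M reads for MZ1, EZ1 and DZ1 and at 22.1 to 29.2 M for the other 6 libraries, so 1 read on a gene of 1 kilobase was worth 0.111 to 0.124 and 0.0343 to 0.0452 RPKM. Sums of meristem and endodermis markers followed the zone labels, with departures in MZ3, EZ3 and DZ1 as given below. The summed RPKM of 4 meristem markers was 184 to 243 in the MZ, 6.72 to 35.5 in the EZ and 1.68 to 32.4 in the DZ. That of 3 endodermis markers was 6.28 to 32.8, 33.1 to 545 and 3680 to 8163. MZ3 had the 32.8 RPKM, against 6.28 and 6.58 in MZ1 and MZ2, and lay near EZ1 (33.1). Its root cap sum was the lowest of the MZ (19.3 RPKM, against 45.6 and 81.3 in MZ1 and MZ2). The shoot sum of MZ3 was the highest of the MZ (16.4, against 3.66 and 1.45). EZ3 lay towards the DZ, with the endodermal gene CASP1 at 296 RPKM against 17.4 and 18.2 in EZ1 and EZ2. DZ1 kept more meristem signal (32.4 RPKM over 4 markers) than DZ2 and DZ3 (6.64 and 1.68), near that of EZ1 and EZ2 (35.5 and 32.6). It also kept more root cap signal (6.18 RPKM over 3 markers) than DZ2 and DZ3 (0.192 and 0.0377) and than the EZ libraries (0.369 to 2.42). The sum of 4 shoot markers was 1.45 to 16.4 RPKM in the MZ, 0.738 to 4.26 in the EZ and 19.3 to 39.3 in the DZ. Both shoot markers that could be tested, LHCB1.3 and RBCS1A, rose between the EZ and the DZ (log2 changes of 3.21 and 2.27, limma adjusted p = 0.000474 and 0.0338), with LHCB1.3 at 0.501 to 2.05 RPKM in the EZ and 13.6 to 24.4 in the DZ. Of the 2 not tested, LHCB2.1 was at most 0.486 RPKM and LHCB1.1 at most 2.03 in any library.

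In each of the 7 genes that could be tested, every DZ library lay above every MZ library. The share of all genes with such a separation was not computed, so this is a description. SULTR1;2 was called higher at both steps, SULTR1;1, SULTR2;1 and APR1 between the EZ and the DZ, SULTR2;2 between the MZ and the EZ, and APR2 and APR3 at neither step. These are calls at a threshold, and a difference between the steps was not tested. The call of SULTR2;2 moved to the later step without EZ3, as given below. SULTR3;5 was listed at 0 in 8 of 9 libraries and was not tested. The fit called 2 of 7 higher between the MZ and the EZ, where 38.7% of all tested genes were called in either direction and 18.3% higher. It called 4 of 7 higher between the EZ and the DZ, where 36.0% of all genes were called and 19.6% higher. Between the MZ and the DZ, 6 of 7 were called higher, against 62.1% of all genes called and 29.8% higher. None of the 7 was called lower by limma in these 3 comparisons, beside 20.4%, 16.4% and 32.3% of all genes called lower. Median log2 changes of the 7 were 0.68, 1.88 and 2.56, beside 0.03, -0.13 and -0.16 over all tested genes. SULTR1;1, SULTR2;1 and SULTR2;2 would not have reached the minimum of 1 RPKM in 3 libraries without the DZ, where they are high, so these counts and medians describe the genes that passed and support nothing further.

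**Figure D1:**
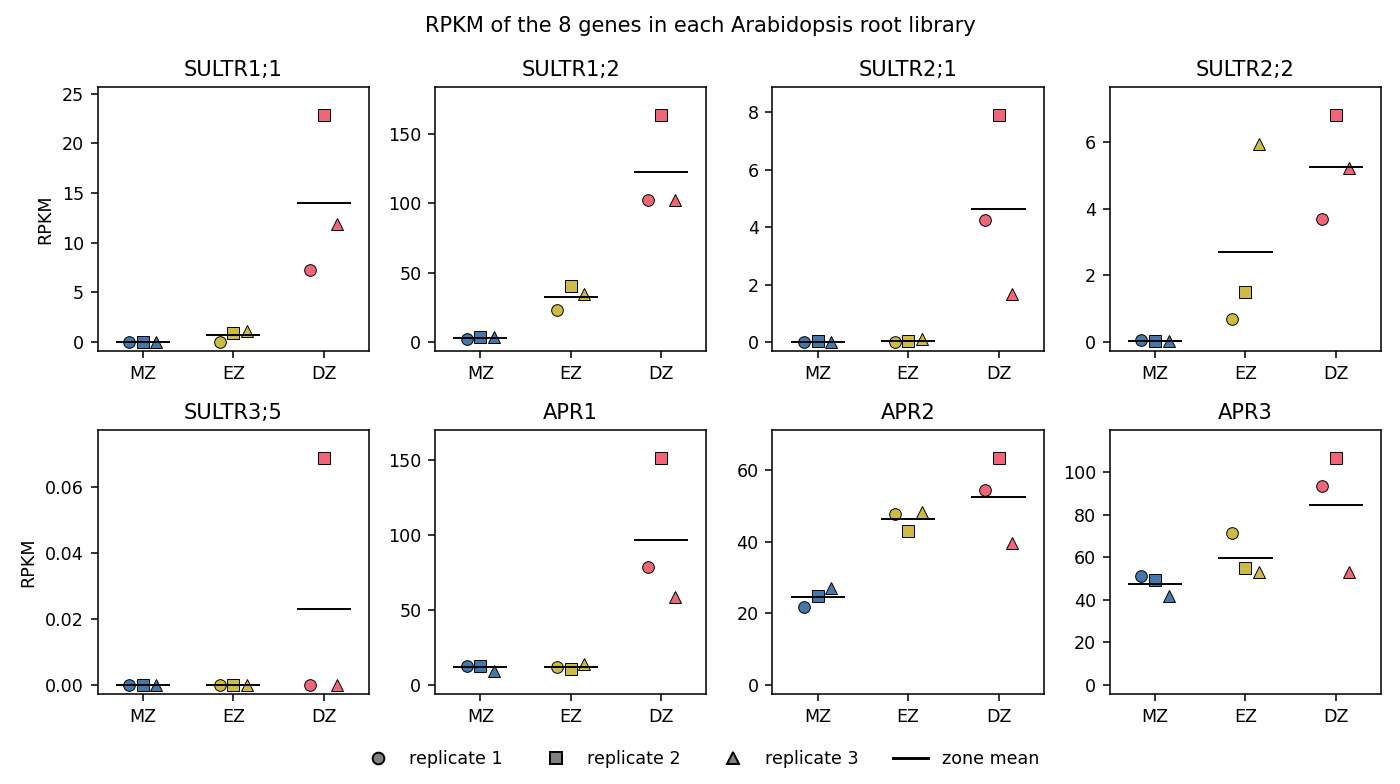
RPKM (y axis, linear, own scale in each panel) of the 8 genes in the MZ, EZ and DZ of Arabidopsis roots, where symbols are the 3 libraries of a zone by replicate number and bars are zone means. DZ2 (square) was the highest DZ library for each of the 7 genes tested, and its value was the only one above 0 in the panel of SULTR3;5. The share of all genes highest in DZ2 was not computed.

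SULTR1;2 (AT1G78000, TAIR10.1 chr1:29327515-29333220, plus strand) is the main high-affinity sulfate uptake carrier of Arabidopsis roots under ample sulfate. Its RPKM was 2.24, 3.39 and 3.27 in the MZ libraries, 22.8, 40.1 and 34.9 in the EZ libraries, and 102.5, 164 and 102.2 in the DZ libraries. The 3 zones did not overlap, and each step from the MZ towards the DZ was upward. The ratio of zone means was 11.0 between the MZ and the EZ, a log2 change of 3.06 ± 0.27 (limma adjusted p = 0.000393), and 3.77 between the EZ and the DZ, a log2 change of 1.88 ± 0.27 (limma adjusted p = 0.000686). From MZ to DZ the means differed 41.4-fold. The gene stood above 23.6% of tested genes in the MZ, 74.5% in the EZ and 92.9% in the DZ.

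SULTR1;1 (AT4G08620, chr4:5500313-5506313, plus strand), the second high-affinity uptake carrier and one known to respond to sulfur shortage, was listed at 0, 0 and 0.0200 RPKM in the MZ, at 0, 0.942 and 1.15 in the EZ, and at 7.20, 22.9 and 11.9 in the DZ. The DZ libraries lay above all others, while the MZ and EZ overlapped at 0. Its rise between the EZ and the DZ was 3.08 ± 0.41 on the log2 scale (limma adjusted p = 0.000523). Between the MZ and the EZ the estimate was 0.68 ± 0.41 and was not called (limma adjusted p = 0.186). Over 18 alternatives it ran from 0.47 to 2.25 and was never called (limma adjusted p = 0.0629 to 0.499).

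Of the summed RPKM of these 2 uptake carriers, SULTR1;2 made up 99.8% ± 0.35 in the MZ, 98.2% ± 1.65 in the EZ and 90.3% ± 2.90 in the DZ (SD, n = 3). Every DZ library was below every EZ library in this share, the difference being -7.91 percentage points (exact two-sided permutation p = 0.1, the smallest that 3 against 3 libraries can give). The difference between the EZ and the MZ was -1.63 points (exact permutation p = 0.4). The sum itself was 2.97 ± 0.64 RPKM in the MZ, 33.3 ± 9.45 in the EZ and 137 ± 43.4 in the DZ, so SULTR1;1 was the smaller part of it in every library.

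SULTR2;1 (AT5G10180, chr5:3193017-3197136, plus strand) is a low-affinity transporter of the vasculature that acts in moving sulfate from root to shoot. Its RPKM was 0, 0.0441 and 0 in the MZ, 0, 0.0345 and 0.0997 in the EZ, and 4.25, 7.92 and 1.68 in the DZ. The MZ and EZ values were at the level of a few reads and overlapped, and all DZ libraries were above them. The rise between the EZ and the DZ was 2.26 ± 0.37 on the log2 scale (limma adjusted p = 0.00124), and the MZ to EZ estimate was 0.04 ± 0.37 (limma adjusted p = 0.929).

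The same gene is also a known target of miR395, a microRNA that accumulates in sulfur-starved plants and directs the cleavage of its transcript and of those of ATP sulfurylases. The TAIR10.1 annotation of RefSeq places 6 MIR395 loci that yield 2 mature sequences of 21 bases with 1 shared seed (bases 2 to 8, in capitals), shown because they define the sites looked for below.
MIR395a, MIR395d and MIR395e: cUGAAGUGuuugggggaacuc
MIR395b, MIR395c and MIR395f: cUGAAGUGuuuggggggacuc
All 6 loci were listed at 0 in all 9 libraries, in a table that counts mRNA and was not made for small RNA.

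In the transcripts of the 8 genes and of the other listed sulfur genes, 50 genes in all, an ungapped search for the 21 bases found 4 genes with at least 17 bases in Watson-Crick pairs with a mature miR395. They are shown to set the site of the transporter beside those of the ATP sulfurylases, on the transcript strand, with paired bases in capitals. The transporter had 18 paired bases, and ATPS4, ATPS1 and ATPS3 had 19, 18 and 18. The best match in any other gene had 15. Each site lies in coding sequence.
SULTR2;1 (chr5:3193268-3193288, plus): aAGTTCtCCCAAACACTTCAa
ATPS4 (chr5:17591121-17591141, minus): GAGTTCCtCCAAACACTTCAt
ATPS1 (chr3:8113164-8113184, plus): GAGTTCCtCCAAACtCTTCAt
ATPS3 (chr4:8414958-8414978, minus): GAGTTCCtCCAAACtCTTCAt
Between the EZ and the DZ, SULTR2;1, ATPS4 and ATPS1 rose, and ATPS3 had a log2 change of 0.35 ± 0.33 (limma adjusted p = 0.382). A match of letters is a description and no measure of cleavage.

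SULTR2;2 (AT1G77990, chr1:29317767-29323352, minus strand), a second low-affinity transporter of the vasculature, had RPKM of 0.0553, 0.0163 and 0.0421 in the MZ, 0.685, 1.49 and 5.96 in the EZ, and 3.71, 6.84 and 5.22 in the DZ. All EZ libraries were above the MZ, while EZ3 lay inside the DZ range. The rise between the MZ and the EZ was 1.57 ± 0.46 on the log2 scale (limma adjusted p = 0.0189), and the estimate between the EZ and the DZ was 0.99 ± 0.46 (limma adjusted p = 0.103, not called). EZ3, the library towards the DZ by its markers, set where the rise was placed. Without it the first change was 0.98 ± 0.26 (adjusted p = 0.0152), under 2-fold and not called, and the second was 1.58 ± 0.26 (adjusted p = 0.00122) and called. The first call was also lost without MZ1 (adjusted p = 0.0514) or MZ2 (adjusted p = 0.0538), and its adjusted p ran from 0.00302 to 0.0538 over 18 alternatives. SULTR2;2 and SULTR1;2 are neighbours on chromosome 1, on opposite strands, with 4162 bases between them.

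SULTR3;5 (AT5G19600, chr5:6612815-6617047, minus strand), described as a partner that raises the transport activity of SULTR2;1, was listed at 0.0691 RPKM in DZ2 and at 0 in the other 8 libraries. The value in DZ2 stands for about 4.24 reads by the estimated depth. A level below that of a few reads was not detectable in these libraries.

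**Figure D2:**
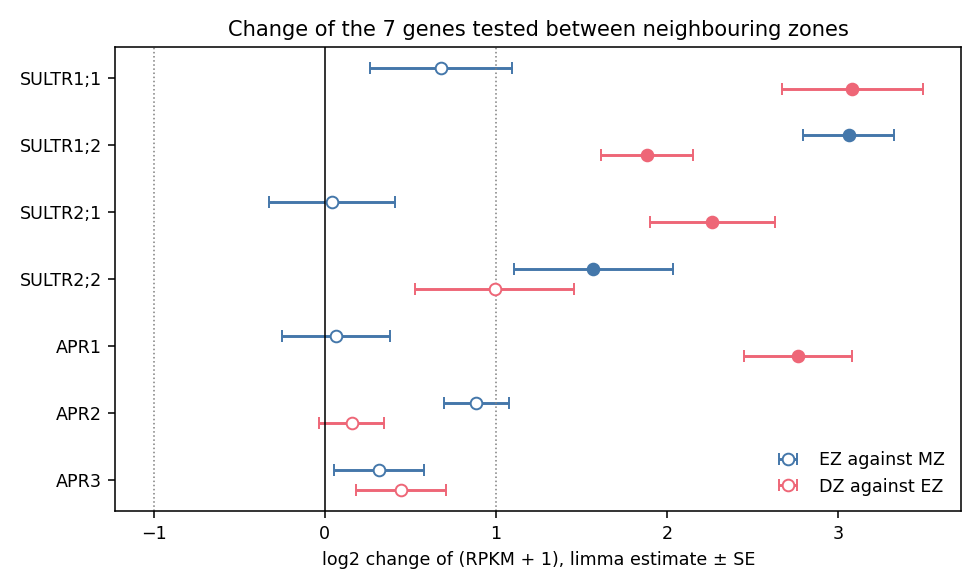
Change of the 7 genes tested between neighbouring zones (x axis, log2 change of RPKM + 1, limma estimate ± standard error, 9 libraries), where filled points were called and dotted lines mark a 2-fold change. Of the 7 genes, 2 have a filled point for EZ against MZ and 4 for DZ against EZ.

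The 3 APS reductases were expressed in every zone, and APR1 alone was called at a step between neighbouring zones. APR1 (AT4G04610, chr4:2324878-2327064, plus strand) had RPKM of 12.9, 12.8 and 9.60 in the MZ, 12.2, 10.8 and 14.0 in the EZ, and 78.8, 152 and 58.7 in the DZ. The MZ and EZ overlapped, and every DZ library was above them. The mean was 7.82 times higher in the DZ than in the EZ, a log2 change of 2.76 ± 0.32 (limma adjusted p = 0.000267), and the estimate between the MZ and the EZ was 0.07 ± 0.32 (limma adjusted p = 0.867).

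APR2 (AT1G62180, chr1:22975530-22977885, minus strand), the isoform known for most of the APR activity in Arabidopsis, had RPKM of 21.9, 25.0 and 27.2 in the MZ, 47.7, 43.0 and 48.4 in the EZ, and 54.6, 63.6 and 39.8 in the DZ. The EZ was above the MZ in every library, with a ratio of means of 1.88 and a log2 change of 0.88 ± 0.19 (limma adjusted p = 0.00483), which is under 2-fold and not called. The EZ and DZ overlapped, with an estimate of 0.16 ± 0.19 (limma adjusted p = 0.506). From MZ to DZ the change was 1.04 ± 0.19 (limma adjusted p = 0.000869), just past 2-fold. That call was lost with quantile normalization (0.99), without MZ1 (0.96), without DZ2 (0.89) and without the 3 libraries numbered 1 (0.92).

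APR3 (AT4G21990, chr4:11657008-11659167, minus strand) had RPKM of 51.4, 49.4 and 42.0 in the MZ, 71.6, 55.0 and 53.2 in the EZ, and 93.7, 107 and 53.0 in the DZ. The EZ libraries were above the MZ libraries, and the DZ overlapped the EZ through DZ3. The estimates were 0.32 ± 0.26 between the MZ and the EZ (limma adjusted p = 0.321) and 0.44 ± 0.26 between the EZ and the DZ (limma adjusted p = 0.186). From MZ to DZ the change was 0.76 ± 0.26 (limma adjusted p = 0.0248), under 2-fold, and it was 1.06 (adjusted p = 0.00176) and called without DZ3.

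The makeup of the APR transcripts in these libraries differed between zones, as a description. The summed RPKM of APR1, APR2 and APR3 was 84.1 ± 4.57 in the MZ, 119 ± 11.7 in the EZ and 234 ± 85.6 in the DZ (SD, n = 3). APR3 held 56.5% ± 3.15 of it in the MZ, 50.3% ± 4.23 in the EZ and 36.5% ± 4.22 in the DZ. APR1 held 13.9% ± 1.52, 10.4% ± 1.50 and 40.2% ± 6.29. APR2 held 29.5% ± 4.59, 39.2% ± 2.81 and 23.4% ± 3.32, with no overlap between neighbouring zones. Its share was 9.69 percentage points higher in the EZ when set against the MZ and differed by -15.9 points between the DZ and the EZ (exact two-sided permutation p = 0.1 for each, the smallest possible with 3 against 3). At that floor the tests cannot decide whether the shares differ. A share also depends on the other genes of the sum. The mean of APR2 itself was 46.4 RPKM in the EZ and 52.7 in the DZ, while that of APR1 was 12.3 and 96.4.

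**Figure D3:**
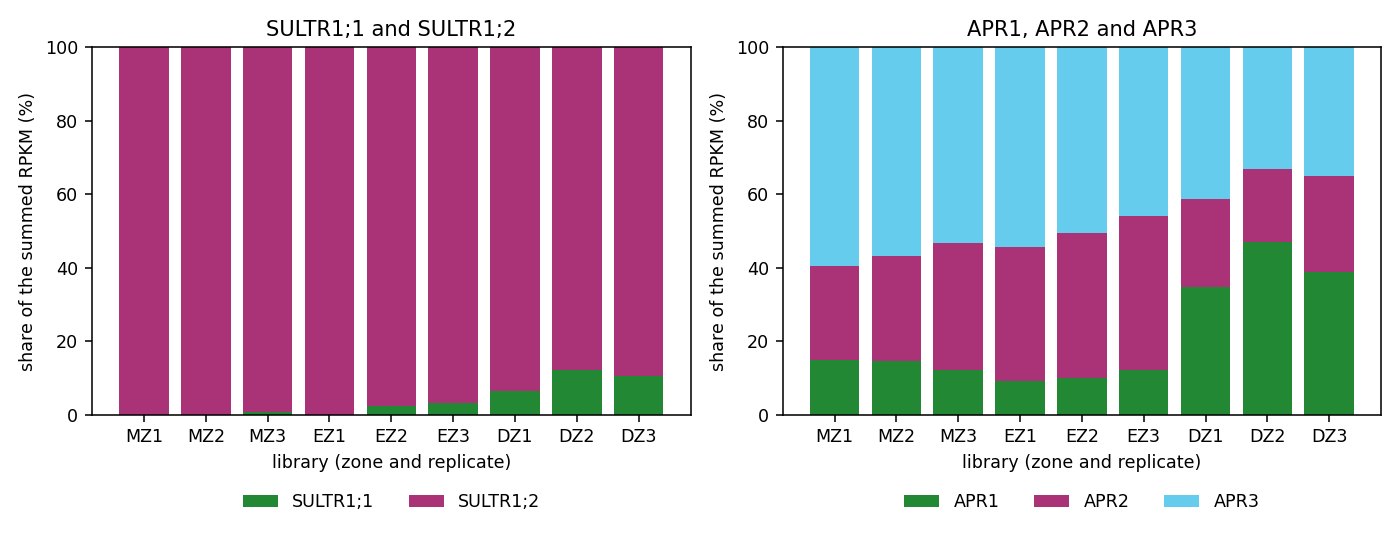
Share of the summed RPKM (y axis, percent) held by SULTR1;1 and SULTR1;2 (left) and by APR1, APR2 and APR3 (right) in each of the 9 libraries. SULTR1;2 held at least 87.7% in every library, and the APR1 share was 34.7% to 47.0% in the DZ libraries and 9.27% to 14.9% in the others.

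Levels of the genes kept a different order in the MZ and the DZ. In the MZ it ran from APR3 (47.6 ± 4.93 RPKM) over APR2 (24.7 ± 2.64) and APR1 (11.8 ± 1.86) to SULTR1;2 (2.97 ± 0.631), neighbours whose library ranges did not meet, with the other transporters under 0.06 RPKM in every library. In the DZ SULTR1;2 had the highest mean (123 ± 35.6 RPKM), followed by APR1 (96.4 ± 48.9), APR3 (84.6 ± 28.2) and APR2 (52.7 ± 12.04), and the ranges of each neighbouring pair overlapped. SULTR1;1 (14.0 ± 8.07), SULTR2;2 (5.26 ± 1.57) and SULTR2;1 (4.62 ± 3.13) were lower, and of these neighbours only the last pair had ranges that overlapped.

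Among the DZ libraries, DZ2 was the highest for 7 of 7 genes tested, and the lowest was DZ3 for 5 and DZ1 for 2. The share of all genes that were highest in DZ2 was not computed, so these counts do not set the 7 genes apart from other genes. In the same libraries the sum of the stele transport markers PHO1 and SKOR, which load ions into the xylem, was 45.4, 89.7 and 32.2 RPKM in DZ1, DZ2 and DZ3. Sums of phloem markers (39.9, 41.8 and 20.7) and shoot markers (19.3, 39.3 and 23.4) were also highest in DZ2, while those of the endodermis (5078, 3680 and 8163) were lowest there and those of root hair and epidermis (868, 1140 and 1416) were highest in DZ3. The stele sum was 0.183 to 0.288 in the MZ and 0.799 to 2.45 in the EZ, and 2 of 2 of these markers rose between the EZ and the DZ. At the same step 3 of 3 endodermis, 2 of 4 root hair and epidermis, 2 of 3 phloem and 2 of 2 tested shoot markers rose. The summed root hair and epidermis markers were 9.47 to 14.4 RPKM in the MZ, 49.5 to 323 in the EZ and 868 to 1416 in the DZ, and the phloem markers 3.46 to 4.32, 8.36 to 19.5 and 20.7 to 41.8. The part of these cell types in the changes of the transporters and reductases was not tested. In pieces of root, more cells of a type and more RNA per cell cannot be told apart.

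Other genes of the family and pathway were taken from lists of sulfur genes, whose counts stand beside 18.3% of all tested genes called higher between the MZ and the EZ and 19.6% between the EZ and the DZ. SULTR3;3, SULTR3;4, LSU1, LSU2 and LSU4 would not have reached the minimum of 1 RPKM in 3 libraries without the DZ, where they are high. Counts, percents and medians of their lists thus describe the genes that passed and support nothing further. Of the 7 further sulfate transporters, 5 were tested. SULTR3;2 and SULTR3;3 were called higher between the MZ and the EZ, and SULTR3;4 and SULTR4;1 between the EZ and the DZ, which makes 2 of 5 at each step, and none was called lower. The step was not firm for all of them. Without EZ3, SULTR3;2 (1.11, adjusted p = 0.00280) and SULTR3;3 (1.45, adjusted p = 0.00660) were also called between the EZ and the DZ, making 4 of 5, and SULTR3;4 was called between the MZ and the EZ under 4 of 18 alternatives, such as without EZ2 (1.81, adjusted p = 0.0324). SULTR3;3 had 0.212, 0.0623 and 0.181 RPKM in the MZ and 3.38, 0.895 and 6.16 in the EZ, a log2 change of 1.76 ± 0.42 (limma adjusted p = 0.00806), and was not called without the libraries numbered 1 (adjusted p = 0.0735). SULTR3;2 had 0.210, 0.0310 and 0.328 RPKM in the MZ and 2.22, 2.03 and 11.9 in the EZ, a change of 2.08 ± 0.51 (limma adjusted p = 0.00841), and 1.40 without EZ3. EZ3 was the highest EZ library for both.

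SULTR3;4 had 1.08, 0.929 and 9.35 RPKM in the EZ and 20.1, 17.2 and 16.3 in the DZ, a log2 change of 2.44 ± 0.57 (limma adjusted p = 0.00719). It was 3.23 without EZ3, and was not called without the libraries numbered 1 (adjusted p = 0.0964). SULTR4;1, which releases sulfate from the vacuole, had 14.2, 14.1 and 11.3 RPKM in the EZ and 32.8, 43.5 and 28.1 in the DZ, a change of 1.32 ± 0.20 (limma adjusted p = 0.000814). Its EZ and DZ libraries did not overlap, while its MZ and EZ libraries did. Of the summed RPKM of all 12 transporters, SULTR4;1 held 62.0% ± 3.14, 21.9% ± 8.03 and 16.3% ± 1.14 in the MZ, EZ and DZ, and SULTR1;2 held 15.3% ± 4.08, 51.2% ± 10.8 and 57.0% ± 1.91 (SD, n = 3).

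Of the 5 other genes of sulfate reduction, 1 was called higher between the MZ and the EZ, or 20.0% beside 18.3% of all genes, and 2 between the EZ and the DZ. None was called lower in the reported fit, but ATPS2 was called lower between the EZ and the DZ without EZ3 (-1.01, adjusted p = 0.00703) and without DZ2 (-1.04, adjusted p = 0.0133). ATPS4, an ATP sulfurylase, had 26.1, 24.2 and 28.7 RPKM in the MZ, 43.3, 43.7 and 115 in the EZ and 298, 382 and 454 in the DZ. Its change was 1.16 ± 0.36 at the first step (limma adjusted p = 0.0224) and 2.61 ± 0.36 at the second (limma adjusted p = 0.000582). The first call was lost under 5 alternatives, among them without EZ3 (0.70) and without MZ1 or MZ2 (adjusted p = 0.0603 and 0.0671). ATPS1 had 130, 109 and 114 RPKM in the EZ and 299, 519 and 264 in the DZ, a change of 1.54 ± 0.25 (limma adjusted p = 0.00121). The sulfite reductase gene SIR, which acts after APR, had log2 changes of -0.05 ± 0.21 and 0.12 ± 0.21 at the 2 steps and was not called (limma adjusted p = 0.841 and 0.650).

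APS is also used by APS kinase (APK), which leads to sulfated compounds such as glucosinolates rather than to cysteine. Of 9 genes listed for that branch, 1 was called higher between the MZ and the EZ (11.1%, beside 18.3% of all genes) and 4 between the EZ and the DZ (44.4%, beside 19.6%), and 0 were called lower. The second count was 6 without the libraries numbered 3, and 3 without EZ2, where SOT17 lost its call (limma adjusted p = 0.0611). The 9 include AT5G01340, listed as PAPST1 but named mSFC1 in the reference, so it may not belong to the branch. It was not called at either step. APK2 had 2.43, 0.623 and 1.63 RPKM in the EZ and 34.5, 101 and 49.9 in the DZ, a log2 change of 4.54 ± 0.45 (limma adjusted p = 0.000160). APK1 rose by 1.85 ± 0.19 (limma adjusted p = 0.000172), and SOT16, a sulfotransferase of glucosinolate synthesis, by 2.27 ± 0.25 (limma adjusted p = 0.000240). DZ2 was again the highest DZ library for APK1, APK2 and SOT16. SOT18, another such sulfotransferase, rose between the MZ and the EZ by 1.73 ± 0.38 (limma adjusted p = 0.00545), a call lost without the libraries numbered 1 (adjusted p = 0.0642).

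Of 9 tested genes of cysteine and glutathione synthesis, 3 were called higher between the MZ and the EZ and 2 between the EZ and the DZ (22.2%, beside 19.6% of all genes). The second count was 4 without DZ3, through SERAT1;1 (1.01) and SERAT3;1 (1.01), and SERAT1;1 (0.99 ± 0.15 in the reported fit, adjusted p = 0.000942) was called at that step under 7 of 18 alternatives. OASA1, the cytosolic enzyme that makes cysteine, had 92.2, 114 and 123 RPKM in the MZ and 296, 315 and 515 in the EZ, a log2 change of 1.73 ± 0.24 (limma adjusted p = 0.00101). SERAT1;1, a serine acetyltransferase, rose between the MZ and the EZ by 1.28 ± 0.15 (limma adjusted p = 0.000628). GSH1, of glutathione synthesis, rose by 1.08 ± 0.26 (limma adjusted p = 0.00734), a call lost without EZ3 (0.93), with quantile normalization (0.92) and without the libraries numbered 1 (adjusted p = 0.0558). Between the EZ and the DZ the serine acetyltransferases SERAT2;2 and SERAT2;1 rose by 2.13 ± 0.37 and 1.14 ± 0.20 (limma adjusted p = 0.00183 and 0.00172).

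Genes known as reporters or regulators of sulfur status were called higher in 1 of 9 between the MZ and the EZ and in 5 of 9 between the EZ and the DZ (11.1% and 55.6%, beside 18.3% and 19.6% of all genes). The first count was 2 without MZ1, EZ3 or DZ3 (through LSU3) or MZ3 (through HY5, 1.04), and LSU3 was called there under 7 of 18 alternatives. LSU1, among the 5 of the second, lost its call under 6 of 18. LSU1, LSU2 and LSU4, all among these 5, reached the minimum of 1 RPKM in 3 libraries only with the DZ. LSU2, a gene known to respond to low sulfur, had 0.893, 0.539 and 0.832 RPKM in the EZ and 38.9, 39.7 and 20.2 in the DZ, a log2 change of 4.22 ± 0.33 (limma adjusted p = 5.97e-05). LSU4 rose by 3.02 ± 0.22 (limma adjusted p = 4.54e-05). SDI1, which represses glucosinolate synthesis in sulfur shortage, had 0.241, 0.0709 and 0.184 RPKM in the MZ, 2.41, 1.58 and 2.89 in the EZ and 28.2, 22.8 and 18.3 in the DZ, with changes of 1.48 ± 0.24 and 2.87 ± 0.24 at the 2 steps (limma adjusted p = 0.00158 and 7.43e-05). No gene of this list was called lower at either step. SLIM1, a transcription factor of the sulfur response, had changes of 0.14 ± 0.15 and 0.37 ± 0.15 and was not called (limma adjusted p = 0.431 and 0.0663).

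From MZ to DZ, with the 8 genes left out, 4 of 5 tested transporters, 2 of 5 genes of sulfate reduction, 6 of 9 of the APS kinase branch, 5 of 9 of cysteine and glutathione synthesis and 7 of 9 of sulfur status were called higher and 0 lower by limma, beside 29.8% of all genes higher. SOT17, among the 6 of the APS kinase branch, lost its call under 6 of 18 alternatives. The 9 listed for that branch include AT5G01340, which the reference names mSFC1. The counts of transporters and of sulfur status include SULTR3;3, SULTR3;4, LSU1, LSU2 and LSU4, which could be tested only through the DZ. At an unadjusted p under 0.05, the genes with a negative estimate were APK3 and OASB from MZ to DZ, APK3 and SAL1 between the MZ and the EZ, and ATPS2, OASB and HY5 between the EZ and the DZ. Some of these also passed the adjusted threshold and missed a call by fold alone. They were APK3 and OASB from MZ to DZ (limma adjusted p = 0.00384 and 0.00819), SAL1 (0.0174) and ATPS2 (0.0102). From MZ to DZ the lists, in the order above, had median log2 changes of 2.51, 0.07, 1.36, 1.20 and 1.98, beside -0.16 over all genes tested.

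**Figure D4:**
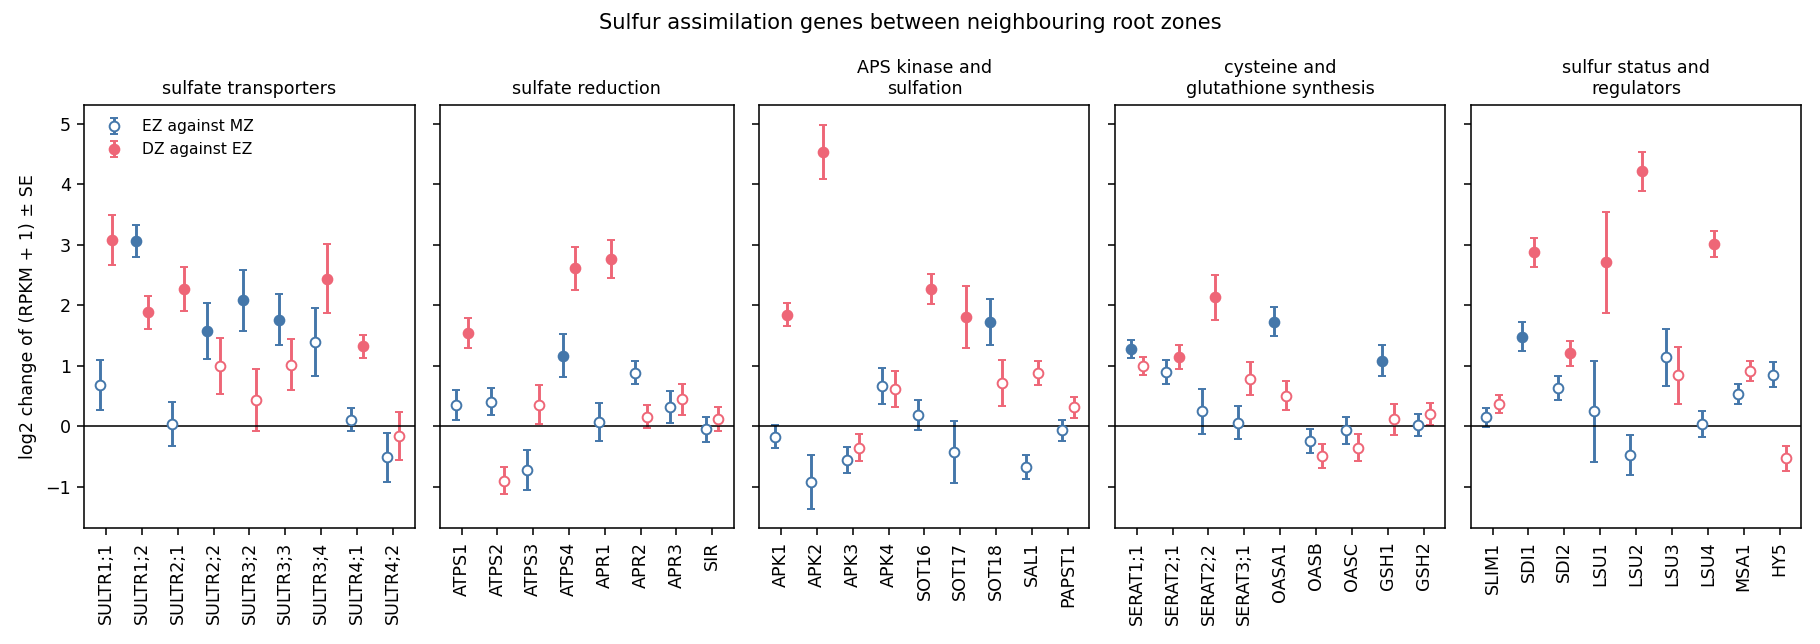
Change of tested sulfur genes between neighbouring zones (y axis, log2 change of RPKM + 1, limma estimate ± standard error, 9 libraries), in 5 lists, where filled points were called. The largest estimate between the EZ and the DZ was that of APK2 (4.54), and no filled point lies below 0. AT5G01340, drawn as PAPST1, is named mSFC1 in the reference.

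Over the 9 libraries, log2 levels of the 7 genes correlated with each other at Pearson r from 0.57 (SULTR2;2 and APR3) to 0.99 (SULTR2;1 and APR1). The points share the 3 zones and their depth, so r is given as a description. The genes with the most similar profiles among the 19640 tested, by the same r, were SOBIR1, VCL1 and scpl3 for SULTR1;2 (0.998, 0.996 and 0.996), scpl2, AT5G19810 and AT1G80960 for SULTR1;1 (0.993, 0.993 and 0.992), EARLI1, SWEET3 and AT4G01600 for SULTR2;1 (0.996 each) and ULI3, AOP1 and AT5G63410 for SULTR2;2 (0.997, 0.995 and 0.995). For APR1 they were AT3G62040, FAR4 and AT2G22510 (0.997, 0.996 and 0.996), for APR2 ABCG14, AT3G11930 and AT3G56790 (0.981, 0.978 and 0.977), and for APR3 SUT4, CPK28 and LSU1 (0.955, 0.941 and 0.934). APR3 thus had the lowest leading value of the 7.

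In the 300 bases upstream of the annotated gene start, both strands were searched for GAGAC, the core of an element known from sulfur-responsive promoters, and for CACGTG, the G-box. Each was found in 0 of 8 genes, beside 30.0% and 7.09% of 27443 genes. Sequence outside these 300 bases was not searched, so the counts do not tell whether the genes have such an element elsewhere. No stretch of 50 bases was shared exactly between any 2 of the 8 genes. SULTR2;2, APR1, APR2 and APR3 overlap annotated genes on the other strand, by 942, 21, 782 and 27 bases at most. The partner of SULTR2;2 was near 0 in every library, that of APR1 (AT4G04614) was at 17.5 to 46.9 RPKM, and that of APR3 (APG8A) at 31.4 to 394 RPKM. AT1G08477, which overlaps APR2 by 782 bases, had no row among the Arabidopsis genes. The other partner of APR2, AT1G62170, overlaps it by 225 bases and was at most 0.0888 RPKM. The sources used here do not say whether reads were counted by strand, so those in the overlaps cannot be assigned to a gene.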

How the data were processed

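The authors deposited RPKM values per gene in a table whose columns stack the species. Per the labels, reads were mapped with Ensembl release 19 (TAIR10). FastQC and TopHat2 are named in the submitters' processing notes, without versions, and the sources used here do not state the counting tool. Some RPKM lie far below the worth of 1 read, so values are not simple read counts, and depth, estimated from low values of 3910 pseudogenes, is approximate. Sequences and coordinates are of TAIR10.1 from RefSeq, matched by locus.

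All 9 Arabidopsis libraries entered 1 limma 3.58.1 fit (R 4.3.3) on log2(RPKM + 1), with a mean trend and robust estimation and two-sided tests, for genes that reached 1 RPKM in 3 or more libraries. The fit was tested on simulated data. Shares used exact permutation tests (SciPy 1.17.1), and tables and plots used Python 3.11.15, pandas 2.3.3, NumPy 2.4.6 and matplotlib 3.10.9. Alternatives changed the pseudocount, filter, scaling, libraries and block. Some, such as the block or leaving out a library of the zone not compared, could not alter a log2 change, only its p. The genes and lists were chosen with earlier results of these data known. Named list genes are the called ones, at most 3 a list and comparison by size of change, and genes untested, not called, or changing call under an alternative, given as such.

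Same-numbered libraries deviated together, with r of 0.199, 0.305 and 0.183 between the MZ and EZ and 0.458, 0.136 and 0.450 between the EZ and DZ, but 0.115, 0.088 and 0.142 between the MZ and DZ. This pairing comes from the values, since the labels do not say what a number marks.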

Additional observations from a re-analysis of the deposited data

How the results depend on the processing

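Over 18 alternatives a comparison, 367 of 378 log2 changes of the transporters and reductases kept their side of the criteria, 8 lost a call and 3 gained one. Changes called in the reported fit or in the alternative had 0 reversals of direction. Estimates called in neither could change sign, such as those of APR1 (-0.15 to 0.15) and SULTR2;1 (-0.09 to 0.30) between the MZ and the EZ. Of 1998 for other listed genes, 1936 kept their side, 26 lost a call and 36 gained one (2 of these lower, both ATPS2). Called changes again had 0 reversals, while some estimates never called changed sign, such as SERAT2;2 between the MZ and the EZ (-0.30 to 0.59). The number of the 7 genes called between the MZ and the EZ was 1 instead of 2 without the 3 libraries numbered 3, and 1 to 2 with 1 library left out, being 1 without MZ1, MZ2 or EZ3 (the call lost is SULTR2;2). With 1 library left out it was 4 to 5 between the EZ and the DZ and 5 to 7 between the MZ and the DZ, and all genes called numbered 6155 to 8203, 5911 to 8847 and 11686 to 12483. The differences of the SULTR1;2 share were then -2.54 to -0.943 and -9.50 to -6.66 percentage points, and those of the APR2 share 7.64 to 12.2 and -17.3 to -14.1.

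With the replicate number as a block, 7778, 7370 and 12212 genes were called against 7605, 7070 and 12206, and 2, 4 and 6 of the 7 genes as before. The block changed 1 call among the listed genes, LSU3 between the MZ and the EZ, which was then called (log2 change 1.14, limma adjusted p = 0.0219). Every library correlated best with its own number. Within pairs, the exact sign-flip permutation p of the 4 share differences was 0.25 to 0.5, where 3 pairs allow no less than 0.25. With quantile normalization the median change over all genes went from 0.03, -0.13 and -0.16 to -0.03, -0.21 and -0.25, and between the EZ and the DZ it turned which direction had more calls (3697 higher and 3790 lower, against 3857 and 3213).

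Precision is limited by 3 libraries a zone, by the lower depth of the libraries numbered 1, and by the few reads behind the 4 low transporters in the MZ.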

Other observations

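Some listed genes were lower in the DZ than in an earlier zone, or peaked in the EZ, without being called in the reported fit. ATPS2, an ATP sulfurylase, had 65.3, 70.1 and 53.2 RPKM in the EZ and 37.0, 40.3 and 24.0 in the DZ, so the DZ lay below the EZ in every library, with a log2 change of -0.90 ± 0.23 (limma adjusted p = 0.0102), under 2-fold but past it without EZ3 or DZ2. HY5, a transcription factor of light signalling known to bind APR promoters, was higher in every EZ library (116, 103 and 127 RPKM) than in every MZ library (61.2, 50.3 and 82.1), also under 2-fold (0.85 ± 0.20, limma adjusted p = 0.00782), and had 79.2, 69.7 and 89.9 RPKM in the DZ, below every EZ library (-0.53 ± 0.20, limma adjusted p = 0.0554). GGCT2;1, of glutathione turnover and known to be induced by sulfur shortage, was not tested, at 1.52, 3.03 and 0.462 RPKM in the MZ and 0.323, 0.0498 and 0.117 in the DZ. BGLU28, a beta-glucosidase with the same known response, was not tested either, and its highest value was 2.41 RPKM in EZ1.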
